A study of Mus musculus with 360 samples.

Results

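Small leucine-rich proteoglycans (SLRPs) were read in single CD51+;CD200+ skeletal stem/progenitor cells of 3 cranial sutures and the tibial growth plate of newborn mice. The 10 genes described here, Dcn, Bgn, Aspn, Fmod, Lum, Prelp, Omd, Epyc, Ogn and Chad, were chosen by name as members of this family. The choice was made with earlier results of these data known. All 10 were among the 24015 genes of the 8 deposited tables. SLRPs are secreted proteins built of leucine-rich repeats, and most of them carry chondroitin, dermatan or keratan sulfate chains. They bind fibrillar collagens and set how collagen fibrils grow and pack in bone, tendon, cartilage, skin and cornea, and several of them also bind growth factors such as TGF-beta. By sequence they fall into classes. Of these genes, 3 belong to class I (Dcn, Bgn and Aspn), 4 to class II (Fmod, Lum, Prelp and Omd), 2 to class III (Epyc and Ogn) and 1 to class IV (Chad).

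All cells came from untreated wild-type CD-1 mice at postnatal day 3 and passed the same sort, positive for CD51 and CD200 and negative for 6C3, CD105, Tie2, Thy1.1 and Thy1.2 and for the blood markers CD45 and Ter119, so that no group differed by genotype, age or agent. The groups were the posterior frontal (PF) suture, which fuses early in life, the sagittal (SAG) and coronal (COR) sutures, which remain patent, and the tibial growth plate (GP). Each tissue was read on 2 plates, and 325 of 360 deposited cells passed a minimum of 500 genes and 10000 reads, with 87 from PF, 86 from SAG, 74 from COR and 78 from GP. No animal was named for any cell and tissue digests were pooled, so each tissue was 1 sample, no significance test was made, and the 2 plates of a tissue gave the only measure of spread.

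Levels are given as CPM, reads for each 1000000 reads of the total without Rn45s, a ribosomal RNA precursor entry that took 20.2% to 31% of the reads on 7 plates. SAG plate 2 stood apart, with 86.8% of its reads on Rn45s and a median of 875 genes in a cell against 2112 to 3867 on the other plates, and the SAG comparisons are therefore given with and without it. The median cell of a plate held 125830 to 511698 reads other than Rn45s. The sorted proteins were read in every tissue, with Itgav (CD51) at 60.9 to 122 CPM and Cd200 at 55.2 to 287 CPM over the 8 plates. On SAG plate 2, though, Itgav was read in 3 of 56 cells (5.36%) and Cd200 in 9 (16.1%). On the other plates the shares were 29.4% to 68.8% for Itgav and 44.1% to 68.8% for Cd200. Of 6 endothelial genes, Pecam1, Emcn, Tek and Flt1 were listed at 0 on all plates, while Kdr was at 16.4 CPM in SAG, from 2 cells, 4.56 CPM in COR and 1.22 CPM in PF, and Cdh5 at 2.34 CPM in COR and 1.16 CPM in PF. Chondrocyte genes were not evenly spread. The summed level of a list of 10 such genes was 23248 and 23794 CPM on the SAG plates, 512 and 4861 CPM on the GP plates and 129 to 340 CPM on the PF and COR plates.

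At least 1 of the 10 genes was read in 85 of 87 PF cells, 84 of 86 SAG cells, 72 of 74 COR cells and 73 of 78 GP cells. Together the 10 genes took 26418 CPM in GP and, among the sutures, 17753 CPM in COR, 15479 CPM in PF and 15165 CPM in SAG. The GP plates (32933 and 25050 CPM) were both above every suture plate (12981 to 18680 CPM), while the suture tissues overlapped one another. The classes divided this sum differently by tissue. Class I was highest in GP (12012 CPM), followed by COR (7363 CPM), PF (7257 CPM) and SAG (5159 CPM), and class II held 10319, 9619, 6638 and 5015 CPM in the same order. Class III ranged from 702 CPM in COR to 4089 CPM in SAG, and class IV, which is Chad alone, from 69.5 CPM in COR to 902 CPM in SAG. By plate COR overlapped PF and SAG in class I, and each neighbour in that order overlapped the next in class II, at 9712 and 13213 CPM in GP, 7205 and 9890 CPM in COR, 5891 and 9721 CPM in PF and 2415 and 8926 CPM in SAG. Without SAG plate 2, SAG held 8926 CPM of class II, above the PF sum, with 4665 CPM of class I, 1072 CPM of class III and 253 CPM of class IV.

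**Figure D1:**
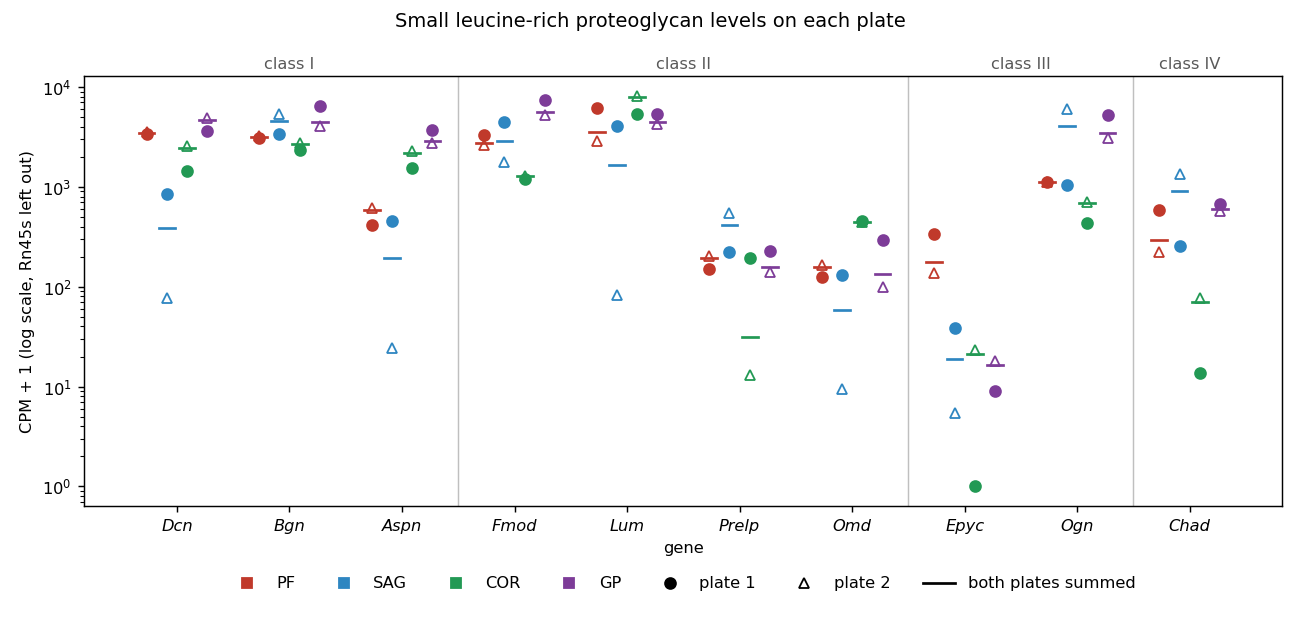
Level of each of the 10 genes on each plate, as CPM + 1 on a log axis with Rn45s left out. Circles are plate 1, triangles plate 2 and short lines both plates summed, coloured by tissue. Epyc sits apart in PF (338 and 136 CPM, against 0 to 38 CPM elsewhere), and Dcn, Aspn, Lum and Omd fall on SAG plate 2.

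Among the class I genes, Dcn encodes decorin, which binds type I collagen and limits the lateral growth of fibrils. Its levels were 3410 and 3507 CPM on the PF plates, 846 and 76.6 CPM on the SAG plates, 1457 and 2591 CPM on the COR plates and 3635 and 4848 CPM on the GP plates. No neighbours in the order GP, PF, COR, SAG overlapped by plate. Among PF cells, 80 of 87 read Dcn (95% exact binomial interval 84.1% to 96.7%). The share was 91.9% of COR cells and 79.5% of GP cells, but 46.7% on SAG plate 1 and 12.5% on SAG plate 2. All intervals here cover counting error only, since the cells of a tissue are 1 pooled sample and not replicate animals. Reads after PCR are not separate molecules, so no interval is given for a level.

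Bgn encodes biglycan, a relative of decorin that is abundant in bone matrix and needed for normal bone mass. It was the most evenly read of the 10 genes, at 3084 and 3215 CPM on the PF plates, 3369 and 5388 CPM on the SAG plates, 2322 and 2727 CPM on the COR plates and 6459 and 4050 CPM on the GP plates. It was read in 89.7% to 97.3% of the cells of each tissue, and SAG plate 2 (92.9% of cells) did not stand apart for it. GP and SAG overlapped, and both were above PF, which was above COR.

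Aspn encodes asporin, a class I protein that carries no glycosaminoglycan chain and is known to bind TGF-beta and collagen. Its levels were 418 and 620 CPM on the PF plates, 449 and 23.1 CPM on the SAG plates, 1550 and 2274 CPM on the COR plates and 3674 and 2746 CPM on the GP plates. GP was above COR and COR above PF on every plate, and PF overlapped SAG. One PF cell held 28.2% of the PF reads. A read was found in 79.7% of COR cells, 66.7% of GP cells and 56.3% of PF cells, against 36.7% and 8.93% on the SAG plates.

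Among the class II genes, Fmod and Lum encode fibromodulin and lumican, keratan sulfate proteoglycans that compete for a shared site on type I collagen. Fmod was at 3326 and 2642 CPM on the PF plates, 4510 and 1783 CPM on the SAG plates, 1197 and 1279 CPM on the COR plates and 7357 and 5233 CPM on the GP plates. It was thus highest in GP and lowest in COR with no overlap at either end, although the share of cells with a read was nearly flat, from 74.4% in GP to 83.8% in COR. With all reads, the tissue with the most Fmod reads had the lowest share of cells with one. That was no longer so with each cell thinned to the same number of reads and shallower cells left out. Fmod was then read in 80.6% of GP cells, 84.5% of COR cells, 78.8% of SAG cells and 75.7% of PF cells. With all reads again, the median level in the cells that did read Fmod was 4863 CPM in GP and 997 CPM in COR.

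Lum had its highest sum in COR (7875 CPM). It was at 5361 and 8158 CPM on the COR plates, 5337 and 4238 CPM on the GP plates, 6119 and 2880 CPM on the PF plates and 4064 and 80.9 CPM on the SAG plates. The COR plates were above both GP plates by a narrow margin but overlapped PF, whose plate 1 lay above COR plate 1, and GP, PF and SAG overlapped in turn. The 2 SAG plates were the furthest apart of any pair for Lum, with a read in 80% of the cells of plate 1 and 25% of those of plate 2.

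Prelp encodes a class II protein with a heparin-binding end that can anchor basement membrane to connective tissue. It was at 151 and 203 CPM on the PF plates, 220 and 542 CPM on the SAG plates, 195 and 12 CPM on the COR plates and 229 and 141 CPM on the GP plates. Only COR plate 2 fell outside the range of 141 to 542 CPM held by the other 7 plates. One cell held 65.9% of the Prelp reads of COR plate 1.

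Omd encodes osteomodulin (osteoadherin), a keratan sulfate proteoglycan of mineralized matrix. It was at 452 and 441 CPM on the COR plates, 125 and 166 CPM on the PF plates, 289 and 99.4 CPM on the GP plates and 132 and 8.42 CPM on the SAG plates. Both COR plates were above all the other plates, with Omd read in 75% and 39.7% of their cells. A single COR cell held 46.4% of the COR reads, and without the top cell of each tissue the PF to COR log2 ratio went from -1.48 to -0.91.

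Among the class III genes, Epyc encodes epiphycan, a dermatan sulfate proteoglycan named for the epiphyseal cartilage in which it was found. It was at 338 and 136 CPM on the PF plates, 38 and 4.45 CPM on the SAG plates, 0 and 22.3 CPM on the COR plates and 8.10 and 16.9 CPM on the GP plates. Both PF plates were above all other plates, and the other tissues overlapped. Of 87 PF cells, 33 read Epyc (37.9%, interval 27.7% to 49%), against 4 of 78 GP cells (5.13%), 5 of 74 COR cells (6.76%) and 7 of 86 SAG cells (8.14%). COR plate 1 held no read in 16 cells, which at 3 counts puts the share of read-positive cells at no more than 18.8% (exact upper limit 20.6%). With each cell thinned to 100000 reads Epyc was found in 40% of PF cells against 5.63% in COR, 5.97% in GP and 7.5% in SAG, after 17 PF, 3 COR, 11 GP and 6 SAG cells that were shallower had been left out. The PF reads were spread over cells, with 10.1% of them in the top cell, while the top cell held 78.2% of the SAG reads, 53.2% of the COR reads and 52.4% of the GP reads.

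Epyc is best known from cartilage, so the chondrocyte genes are given beside it. SAG, the tissue with the most chondrocyte reads, held 17.8 CPM of Epyc against 175 CPM in PF. Within PF, Col2a1, the main collagen of cartilage, was read in 4 of 33 cells with Epyc (12.1%) and in 4 of 54 cells without it (7.41%). Col2a1 was thus read in only 8 PF cells, while Acan was read in 35 and Sox9 in 20, which are not given with Epyc. Elsewhere Epyc cells were few. Col2a1 was read in 3 of 3 on SAG plate 1, 3 of 4 on SAG plate 2, 2 of 4 in GP and 0 of 5 in COR. Without Epyc the shares were 70.4%, 59.6%, 25.7% and 4.35% in the same order. RefSeq lists 2 starts for Epyc in the GRCm38.p6 build, both on the plus strand, at chr10:97643818-97644117 and chr10:97646853-97647152, each window running from 250 bases before to 50 bases after a start. They are printed because Epyc was the only one of the 10 genes with both PF plates above all 6 other plates. Which start was used was not tested, since the tables count whole genes.

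Epyc, first start: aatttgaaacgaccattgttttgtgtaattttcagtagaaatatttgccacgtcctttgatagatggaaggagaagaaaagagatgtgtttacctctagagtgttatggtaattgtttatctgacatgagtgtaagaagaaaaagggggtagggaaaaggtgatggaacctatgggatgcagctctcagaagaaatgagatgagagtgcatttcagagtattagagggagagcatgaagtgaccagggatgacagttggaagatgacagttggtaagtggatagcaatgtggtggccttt
Epyc, second start: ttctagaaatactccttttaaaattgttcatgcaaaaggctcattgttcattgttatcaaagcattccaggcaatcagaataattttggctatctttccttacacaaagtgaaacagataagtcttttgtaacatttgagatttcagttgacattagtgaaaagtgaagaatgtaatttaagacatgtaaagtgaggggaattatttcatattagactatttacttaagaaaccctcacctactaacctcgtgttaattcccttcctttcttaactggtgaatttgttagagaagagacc

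Ogn encodes osteoglycin (mimecan), a small keratan sulfate protein of bone and cornea. It was at 1129 and 1113 CPM on the PF plates, 1034 and 6091 CPM on the SAG plates, 434 and 709 CPM on the COR plates and 5278 and 3099 CPM on the GP plates. GP was above PF and PF above COR on every plate, while the SAG plates spanned from below PF to above GP. The share of cells with a read stayed between 63.5% and 75.6% in the 4 tissues.

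Chad, the class IV gene, encodes chondroadherin, a cartilage protein without glycosaminoglycan chains that binds cells through integrins. It was at 581 and 222 CPM on the PF plates, 253 and 1333 CPM on the SAG plates, 12.7 and 75.9 CPM on the COR plates and 667 and 578 CPM on the GP plates. Both COR plates were below all the others. The COR level rested on few cells, with a read in 8 of 74 (10.8%) and 68.2% of the reads in 1 of them, and 92% of the reads of PF plate 1 also lay in 1 cell. Chad was read in 20.7% of PF cells, 37.2% of SAG cells and 41% of GP cells.

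**Figure D2:**
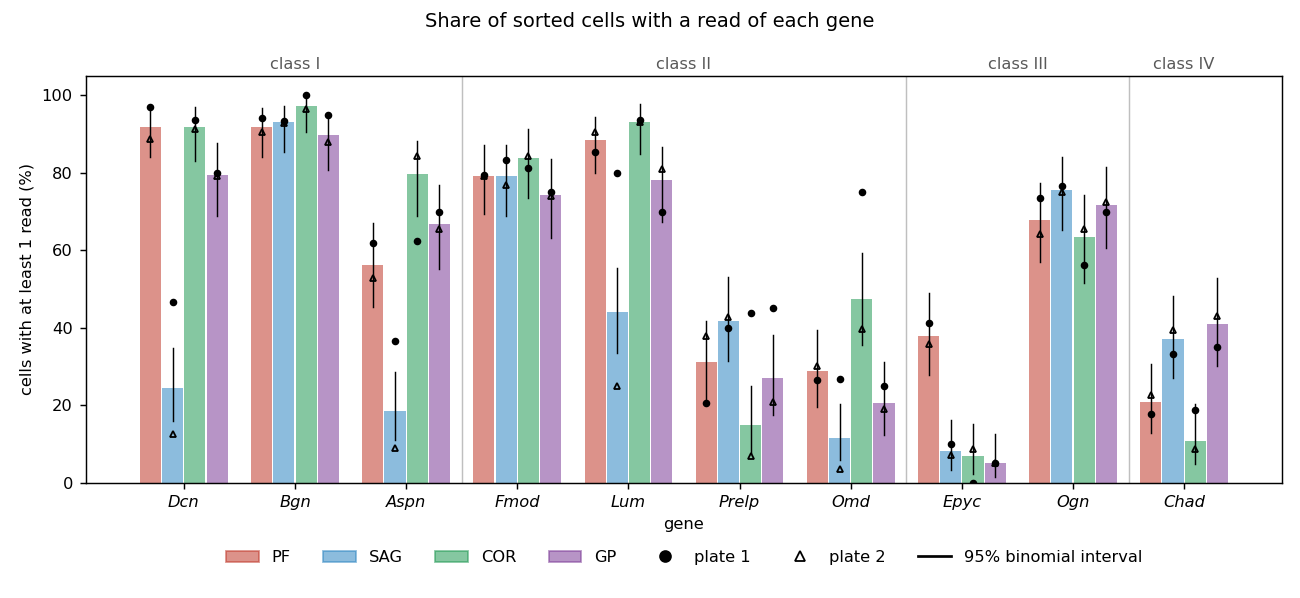
Share of cells with at least 1 read of each gene. Bars are a tissue with both plates, lines its 95% exact binomial interval, circles plate 1 and triangles plate 2. Bgn was read in 89.7% to 97.3% of the cells of each tissue, Epyc in 37.9% of PF cells and in 5.13% to 8.14% of the cells of the others.

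To compare the genes with each other, levels were divided by exon length (RPKM, over the joined exons of GENCODE vM1 on mm9). In PF, Dcn (1801 RPKM) and Lum (1693 RPKM) were highest and overlapped by plate, followed by Bgn (895 RPKM) and Fmod (839.5 RPKM), which also overlapped. Epyc (68.4 RPKM) and Prelp (53.4 RPKM) had the lowest sums and overlapped at the edges of their plates. Epyc (132 and 53 RPKM by plate) also overlapped Omd (80.4 and 106 RPKM). In COR, Lum (3795 RPKM) was above Dcn (1278 RPKM) on both plates. Omd (284 RPKM) was above Ogn (268 RPKM) on both, but on plate 2 only at 283 against 279 RPKM. There 1 cell held 51.7% of the Omd reads. In GP, Dcn (2394 RPKM), Lum (2135 RPKM) and Fmod (1694 RPKM) overlapped, and Epyc (5.99 RPKM) was lowest. In SAG, Ogn (1603 RPKM) and Bgn (1286 RPKM) led with both plates, but on plate 1 alone Lum (1959 RPKM) and Fmod (1364 RPKM) led.

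The genes lie in groups on the mm9 genome. Dcn (chr10:96942245-96980777), Lum (chr10:97028135-97035337) and Epyc (chr10:97106702-97145088) lie on the plus strand within 203 kb, with Kera, the cornea SLRP, between Lum and Epyc. Aspn (chr13:49639812-49662926), Omd (chr13:49678135-49687978) and Ogn (chr13:49703440-49719869) follow one another on the plus strand downstream of Ecm2, within 120 kb in all. These 4 genes lie inside Cenpp on the minus strand, and their exons shared 0 bases with its exons. Prelp (chr1:135806881-135817991, minus strand) and Fmod (chr1:135933831-135944854, plus strand) are neighbours within 138 kb. Bgn (chrX:70728941-70741272) and Chad (chr11:94426361-94430441) lie alone. Neighbours did not share a tissue order. Dcn was highest in GP, Lum in COR by its sum and Epyc in PF. On chromosome 13, Aspn was highest in GP, Omd in COR and Ogn on SAG plate 2. Without that plate Ogn was highest in GP, as Aspn was, but PF was above COR for Ogn and below it for Aspn.

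RefSeq promoter windows were given for 8 of the 10 genes, not for Dcn and Lum. Those of the chromosome 13 neighbours are printed because Aspn and Ogn were among the most correlated of the 10 genes over single cells while Omd, which lies between them, was correlated with neither, and that of Chad because it holds a TATA box motif near the start. The windows are on GRCm38.p6, plus strand, at chr13:49544193-49544492 for Aspn, chr13:49582212-49582511 for Omd, chr13:49607765-49608064 for Ogn and chr11:94564797-94565096 for Chad, each from 250 bases before to 50 after the start. Capitals mark TATAAA on either strand, where TTTATA is the motif read on the minus strand.

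Aspn: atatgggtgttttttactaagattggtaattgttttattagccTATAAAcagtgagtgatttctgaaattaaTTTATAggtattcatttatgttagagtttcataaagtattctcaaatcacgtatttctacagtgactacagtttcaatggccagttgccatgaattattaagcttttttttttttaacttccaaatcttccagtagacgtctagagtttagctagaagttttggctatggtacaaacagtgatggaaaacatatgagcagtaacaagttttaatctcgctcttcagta
Omd: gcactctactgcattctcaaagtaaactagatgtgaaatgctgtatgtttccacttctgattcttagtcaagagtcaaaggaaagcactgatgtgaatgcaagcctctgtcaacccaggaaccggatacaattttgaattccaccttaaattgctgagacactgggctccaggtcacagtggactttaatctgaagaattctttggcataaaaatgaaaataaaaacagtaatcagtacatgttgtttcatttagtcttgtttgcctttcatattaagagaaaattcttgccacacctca
Ogn: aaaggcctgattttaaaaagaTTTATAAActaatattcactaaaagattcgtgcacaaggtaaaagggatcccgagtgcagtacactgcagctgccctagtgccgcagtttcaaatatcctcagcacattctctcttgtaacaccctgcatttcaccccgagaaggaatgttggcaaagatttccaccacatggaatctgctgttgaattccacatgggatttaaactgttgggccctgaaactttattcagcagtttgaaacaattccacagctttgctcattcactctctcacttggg
Chad: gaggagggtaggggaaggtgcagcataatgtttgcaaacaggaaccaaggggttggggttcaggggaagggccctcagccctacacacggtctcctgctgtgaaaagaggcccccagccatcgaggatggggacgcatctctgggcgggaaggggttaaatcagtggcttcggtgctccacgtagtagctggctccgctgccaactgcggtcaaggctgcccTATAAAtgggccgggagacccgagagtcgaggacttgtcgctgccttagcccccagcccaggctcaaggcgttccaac

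TATAAA was present in 13.6% of 32851 promoter windows of the same length, counting both strands. It began 28 bases before the start in Chad, on the strand of the gene. In Aspn it began 207 bases before the start and again, on the other strand, 178 bases before it, and in Ogn it lay on both strands at 227 and 229 bases, which overlap. The windows of Omd, Epyc, Bgn, Fmod and Prelp held none. The E-box letters CANNTG, present in 72.3% of windows, occurred at 4 places in Ogn, 2 in Aspn and 0 in Omd. TGTGGT, the core letters of a RUNX site, present in 16.8% of windows on either strand, occurred once in Ogn and once in the first Epyc window and in none of the other members' windows. A match of letters is a description and no evidence that a factor binds there.

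Tissues were then compared in pairs. A gene was called where its log2 ratio of CPM + 1 was at least 1 in size and each of the 4 comparisons of single plates pointed the same way, among genes with at least 10 CPM in either tissue. All 10 SLRPs passed that minimum in every pair. Comparisons that share a tissue share its cells, so the 6 pairs are not independent of each other.

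PF against COR compared the fusing suture with an open one. Fmod, Epyc and Chad were called higher in PF and Aspn and Omd higher in COR. Among 9514 genes, 5.43% were called higher in PF and 6.36% higher in COR, against 3 and 2 of the 10 SLRPs. The SLRPs were chosen with earlier results of these data known, so nothing about the family is read from this excess. The log2 ratios of PF over COR were 3.06 for Epyc (2.55 to 8.41 over the 4 plate ratios), 2.06 for Chad (1.54 to 5.41) and 1.13 for Fmod (1.05 to 1.47), and -1.92 for Aspn (-2.44 to -1.32) and -1.48 for Omd (-1.84 to -1.41). The upper Epyc value is set by the 1 CPM added, since COR plate 1 had no Epyc read. For Chad, 1 cell held 92% of the PF plate 1 reads. Chad was read in 17.6% of PF plate 1 cells and 18.8% of COR plate 1 cells. The Omd call was lost without the top cell of each tissue (-0.91), where the split of calls was 4 to 1. Lum (-1.16) and Prelp (2.62) were past 1 in size, but their plates did not all point one way. Dcn (0.49), Bgn (0.25) and Ogn (0.71) were under 1 in size. The median ratio was 0.60 over the 10 genes and 0.03 over all genes. A list of 10 osteoblast markers overlapped by plate in this pair, and summed to 75341 and 26810 CPM on the PF plates and 94960 and 52435 CPM on the COR plates. Its part in the result was not tested.

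PF against GP compared the suture that fuses by endochondral ossification with an endochondral site. Epyc was called higher in PF (log2 3.43, plates 2.94 to 5.22), where 7.67% of 9584 genes were, a share close to 1 in 10. Aspn (-2.32, plates -3.13 to -2.15), Ogn (-1.64, plates -2.24 to -1.46) and Fmod (-1.01, plates -1.48 to -0.65) were called higher in GP, where 8.73% of genes were. Fmod lay at the threshold. Its ratio was -0.99 without the top cell of each tissue, -0.94 with Rn45s counted and -0.70 as a mean over cells, and its call was lost in each. Chad (-1.02) was past 1 in size with plates from -1.58 to 0.01. The median was -0.45 over the 10 genes and 0.10 over all genes.

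COR against GP gave Omd higher in COR (1.73, plates 0.60 to 2.17), against 6.33% of 9431 genes called in that direction. Chad (-3.08, plates -5.61 to -2.91), Ogn (-2.35, plates -3.60 to -2.13) and Fmod (-2.14, plates -2.62 to -2.03) were higher in GP, against 7.09% of genes. The Omd call was lost without the top cell of each tissue (1.14) and with plate 1 cells only (0.64). Aspn, the gene furthest below GP in PF, was not called here (-0.40). The tenocyte list of 4 genes moved with the GP comparisons, at 4561 and 2294 CPM on the GP plates, 339 and 400 CPM on the PF plates and 120 and 124 CPM on the COR plates. The osteoblast list was at 1605 and 42212 CPM on the GP plates. Their part in the GP results was not tested.

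**Figure D3:**
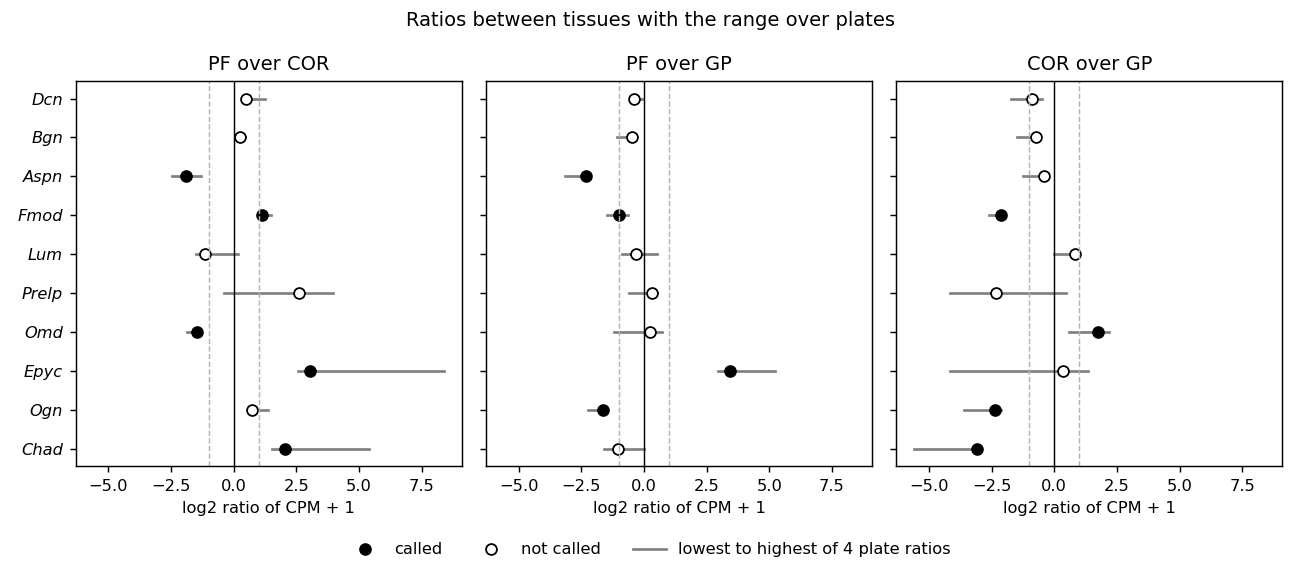
Log2 ratio of CPM + 1 for each gene in the 3 pairs of tissues that do not involve SAG. Points are both plates summed, filled where called, lines run from the lowest to the highest of the 4 plate ratios, and dashed lines mark 1 and -1. Epyc lies to the right in both PF panels (3.06 over COR and 3.43 over GP), and Fmod, Ogn and Chad lie to the left in COR over GP.

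The SAG comparisons depended on plate 2. PF against SAG gave Dcn (3.18) and Epyc (3.23) higher in PF and Prelp (-1.10) higher in SAG, though Prelp turned to 0.78 with Rn45s counted in the total. These directions were called for 16.9% and 13.2% of 9869 genes, so the 2 and 1 of 10 lay near the background. Without SAG plate 2, Dcn (2.04, plates 2.01 to 2.05) and Epyc (2.18, plates 1.81 to 3.12) remained called, against 16.1% of 9599 genes, and none of the 10 was higher in SAG, against 17.2%, with Prelp at -0.19. Counting Rn45s moved the median ratio of all genes from 0.29 to 2.20, and relative to that shift Prelp stayed on the SAG side. The split of calls was then 2 to 0, and with TMM factors 2 to 2, by the addition of Ogn.

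SAG against COR gave Prelp (3.72), Chad (3.68), Ogn (2.58) and Fmod (1.18, but -0.72 with Rn45s counted) higher in SAG and Aspn (-3.50), Omd (-2.92), Dcn (-2.69) and Lum (-2.24) higher in COR. Over all 9800 genes 13.5% were called higher in SAG and 18.9% higher in COR. Without SAG plate 2, Prelp (2.81), Chad (1.85) and Fmod (1.83) were higher in SAG, against 16.5% of 9515 genes, and Aspn (-2.29), Omd (-1.74) and Dcn (-1.55) higher in COR, against 15.5%. Ogn (0.60) and Lum (-0.95) were no longer past the threshold. The Prelp ratio rested on COR plate 2 and was 0.18 with plate 1 cells only, where Dcn was at -0.78. With Rn45s counted the split was 1 to 4 and the median of all genes was -2.24, and relative to that shift Fmod stayed on the SAG side.

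SAG against GP gave none of the 10 higher in SAG, where 13.3% of 9845 genes were, and Aspn (-3.90), Dcn (-3.59) and Lum (-1.41) higher in GP, where 18.3% were. Without SAG plate 2, Epyc (1.25) was higher in SAG, against 17.6% of 9532 genes, and Aspn (-2.69), Dcn (-2.45), Ogn (-1.75) and Chad (-1.23) were higher in GP, against 16.4%, with Lum at -0.12. The split was 0 to 6 with Rn45s counted and 1 to 2 with TMM factors. One SAG cell held 92% of the Epyc reads of SAG plate 1. Dcn and Aspn were thus lower in SAG than in GP, and Dcn also lower than in PF, with and without plate 2. Dcn, Aspn and Omd were likewise lower in SAG than in COR in both settings. The Dcn ratio of SAG over COR was -0.78 with plate 1 cells only, where its call was lost. The chondrocyte genes, which set SAG apart on both plates, moved with these differences, and so did other lists. A list of 6 fibroblast genes was at 3423 and 1741 CPM on the SAG plates and at 11340 to 23898 CPM on the others. A list of 7 smooth muscle or pericyte genes was at 16.7 and 18.9 CPM against 182 to 2131 CPM. The part of these lists was not tested. Fewer cells of a type and less RNA in each cell cannot be told apart in these levels. On SAG plate 1 both the share of cells with Dcn (46.7%, against 79.3% to 97.1% on the plates of the other tissues) and the median level in the cells that read it (654 CPM, against 1572 to 3129 CPM) were lower.

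Most cells read several SLRPs at once. The median PF cell read 7 of the 10 genes, the median COR and GP cells 6 and the median SAG cell 4, with 5.5 on SAG plate 1. Genes of classes I, II and III met in 73.1% of GP cells, 71.3% of PF cells, 69.8% of SAG cells and 63.5% of COR cells. All 4 classes were read in 37.2% of GP cells, 31.4% of SAG cells, 18.4% of PF cells and 9.46% of COR cells, with 30% on SAG plate 1 and 32.1% on SAG plate 2. The 2 SAG plates, far apart in Dcn and Lum, were thus alike in this share.

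Correlations were taken over the 269 cells of all plates but SAG plate 2, on log2(CPM + 1) with plate means removed, among 8151 genes read in at least 10% of those cells. These cells share libraries and differ in depth, so the values are descriptions. Bgn, Fmod, Dcn, Lum, Aspn and Ogn were all positively correlated with each other, from 0.41 between Lum and Ogn to 0.67 between Bgn and Fmod. Within this group the closest partners were Bgn and Fmod (0.67), Aspn and Ogn (0.66) and Dcn and Lum (0.64), each pair from different classes. Prelp and Chad were each other's closest member (0.44). Omd was at 0.26 with Dcn and with Lum, but at -0.11 with Ogn, -0.12 with Chad and -0.03 with Aspn, and Epyc did not pass 0.20 with any member.

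**Figure D4:**
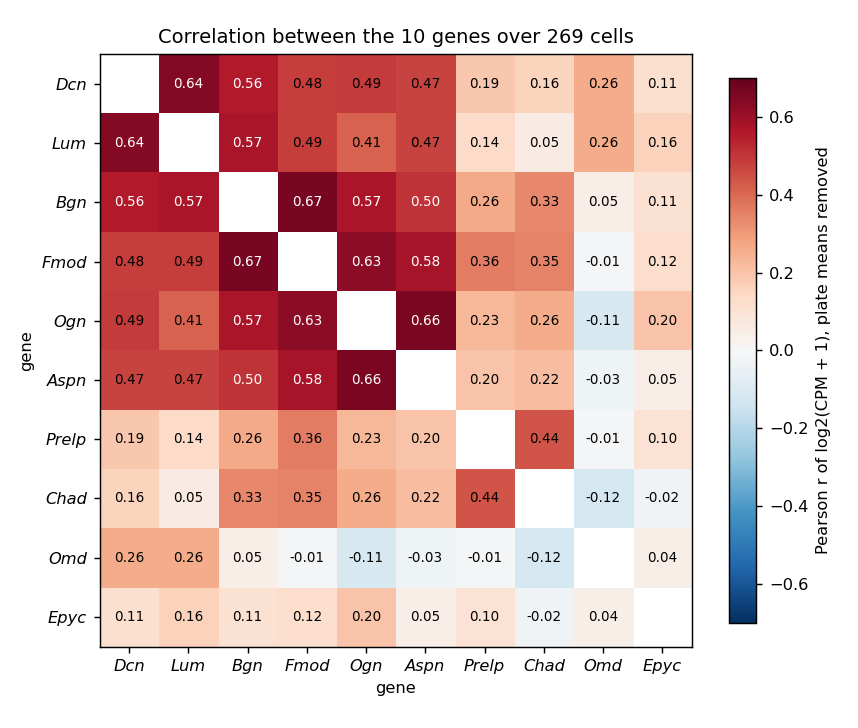
Pearson correlation between the 10 genes over 269 cells of all plates but SAG plate 2, on log2(CPM + 1) with plate means removed. Red is positive and blue negative. Dcn, Lum, Bgn, Fmod, Ogn and Aspn form a block of 0.41 to 0.67, and Omd and Epyc lie outside it.

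Of all genes, those nearest to Dcn and Lum were the same secreted protein and collagen. Serpinf1, which encodes PEDF, stood at 0.69 with Dcn and 0.67 with Lum, and Col12a1, a fibril-associated collagen, stood at 0.64 with both. Bgn was nearest to Fmod, Col6a1 (0.65) and Thbs2 (0.65). Aspn was nearest to Col12a1 (0.68), Ptn (0.66) and Ogn, and Ogn to Itm2a (0.67), 1500015O10Rik (0.67) and Mfap4 (0.66), a microfibril protein. Fmod was nearest to Bgn, Col12a1 (0.63) and Ogn (0.63). Omd was nearest to Bglap (0.53) and Bglap2 (0.52), the osteocalcin genes. Prelp, Epyc and Chad had no gene at 0.5 or above.

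Reads in the same cells were counted next, again without SAG plate 2. Aspn and Ogn were read together in 151 cells, which is 88.3% of the 171 Aspn cells and 81.6% of the 185 Ogn cells, while Ogn was read in 34.7% of the cells without Aspn. Ogn was read in 53 of 84 Omd cells (63.1%) and in 71.4% of the cells without Omd, and tissues pointed opposite ways, with 48% against 75.8% in PF and 57.1% against 69.2% in COR but 81.2% against 69.4% in GP and 8 of 8 cells against 68.2% on SAG plate 1. In PF, Ogn was read in 30 of 33 Epyc cells (90.9%) and in 53.7% of the other PF cells. All 45 Epyc cells also held a read of Lum, its neighbour on chromosome 10, which was read in 186 of the 224 cells without Epyc (83%).

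Prelp and Chad overlapped in 37 cells, which is 52.1% of the 71 Prelp cells and 54.4% of the 68 Chad cells, against Chad in 15.7% of the cells without Prelp. The share of Chad was higher with Prelp than without it in each tissue, at 48.1% against 8.33% in PF, 18.2% against 9.52% in COR (2 cells of 11), 71.4% against 29.8% in GP and 58.3% against 16.7% on SAG plate 1. Fmod was read in 63 of the 68 Chad cells (92.6%) and in 151 of the 201 cells without Chad (75.1%). Thinned to 100000 reads, Prelp and Chad met in 30 of 61 Prelp cells (49.2%) against 15.1% without Prelp.

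In PF and COR the share of cells with Ibsp differed in opposite directions with Aspn and with Omd, although many cells read both genes. Aspn was read in 8 of 25 PF cells with Omd, 27 of 35 in COR, 13 of 16 in GP and 3 of 8 on SAG plate 1. Omd was read in 16.3% of PF cells with Aspn against 44.7% without. The shares were 45.8% against 53.3% in COR, 25% against 11.5% in GP and 27.3% against 26.3% on SAG plate 1. Ibsp encodes bone sialoprotein, a product of osteoblasts that mineralize matrix. It was read in 4 of 49 PF cells with Aspn (8.16%) and in 23 of 38 without it (60.5%), in 13.6% against 73.3% in COR and in 9.62% against 50% in GP. On SAG plate 1 the shares were 18.2% and 15.8%. Omd ran the opposite way in the sutures. Ibsp was read in 17 of 25 PF cells with Omd (68%) and in 10 of 62 without it (16.1%), and in 42.9% against 10.3% in COR and 37.5% against 9.09% on SAG plate 1. In GP it was read in 18.8% of cells with Omd and 24.2% of those without. Thinning left the contrast in place over the 233 cells kept, all tissues pooled. Ibsp was then in 8.55% of cells with Aspn against 49.4% without, and in 41.9% of cells with Omd against 13.8% without. In GP alone the thinned shares were 14.3% with Omd and 17% without.

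**Figure D5:**
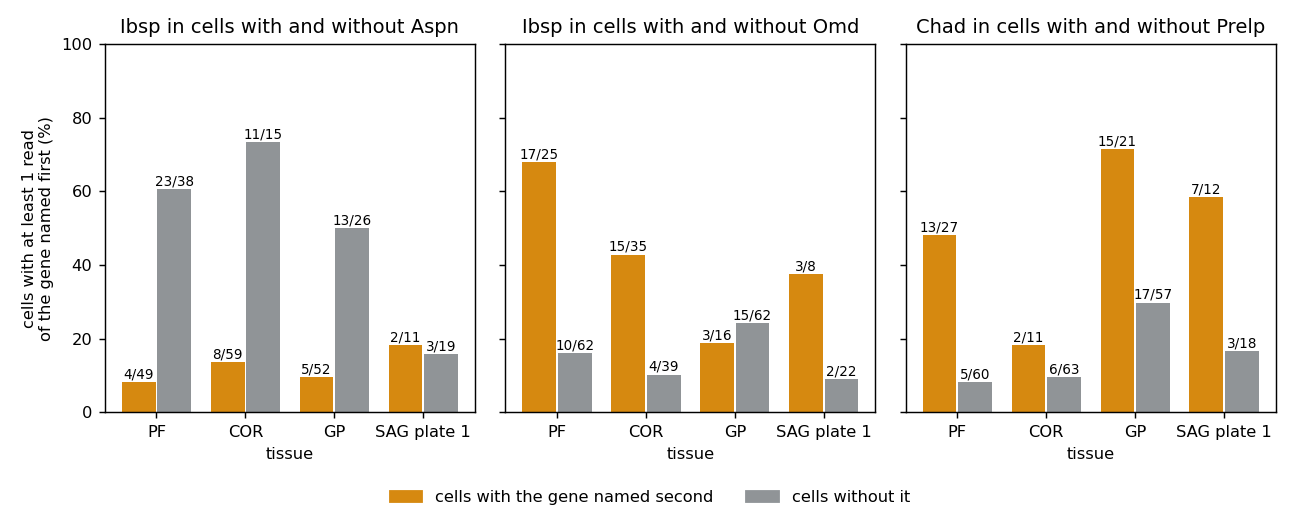
Share of cells with at least 1 read of the gene named first in each panel title, among cells with (orange) and without (grey) the gene named second, by tissue, with SAG plate 1 alone. Numbers over the bars are cells read over cells in all. Ibsp was read in 8.16% of PF cells with Aspn against 60.5% without, and in 68% of PF cells with Omd against 16.1% without.

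Tnmd, which encodes tenomodulin, a product of tendon and ligament cells, was read more often with Aspn, Chad or Prelp than without. Outside SAG plate 2 it was read in 49.7% of cells with Aspn against 16.3% without, in 64.7% of cells with Chad against 28.4% without and in 64.8% of cells with Prelp against 27.8% without. In COR alone it was read in 20.3% of cells with Aspn and 20% of those without. With Omd it was read in 21.4% of cells against 44.9% without, though in GP alone in 56.2% against 51.6% and on SAG plate 1 in 37.5% against 27.3%. Col2a1 was read in 17 of 32 GP cells with Chad (53.1%) and in 4 of 46 without it (8.70%). In PF, Col2a1 was read in 4 of 18 Chad cells (22.2%) and 5.80% of the rest, so that most Chad cells of that suture held no Col2a1 read.

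Of 8 other genes of the family, Optc and Nyx, known from eye and retina, had no read. Kera, which lies between Lum and Epyc, was at 160 and 87.2 CPM on the GP plates and 3.19 CPM on COR plate 2, and was listed at 0 in PF, SAG and COR plate 1. No fold is given against the tissues at 0, since 1 cell can carry many reads. All 92 Kera reads of COR (2.87 CPM) lay in 1 cell. Kera was read in 12 GP cells, and 11 of those also read Aspn. Ecm2, at the head of the chromosome 13 row, was at 118 and 81.7 CPM on the GP plates and 31.2 and 20.5 CPM on the COR plates (log2 of COR over GP -1.98). Podnl1 was called higher in COR than in PF (log2 -1.32), at 72.3 and 77.3 against 39.7 and 27.8 CPM.

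SLRP chains are built by shared enzymes, from the xylose linker through chondroitin, dermatan or keratan sulfate synthesis to sulfation. Of 35 such genes listed, 28 to 30 reached 10 CPM in a pair. In PF against COR 1 was called higher in PF and 3 higher in COR, in PF against GP 3 and 2, and in COR against GP 2 and 0. Over all genes 5.43% to 8.73% were called in a direction of these pairs, so these counts lay near the background. Chst13, a chondroitin 4-O-sulfotransferase, was higher in COR (20.4 and 15.2 CPM) than in GP (0 and 0.595 CPM), and Tpst2, which sulfates the tyrosines found at the end of several class II proteins, stood at 111 and 122 CPM against 14.4 and 36.3 CPM (log2 1.86). Chst2, a keratan sulfate sulfotransferase, was higher in PF than in GP (log2 1.35) and B3gnt2 higher in GP (log2 -1.38, at 0 CPM on PF plate 1). With both SAG plates, 2 and 7 were called in PF against SAG, 7 and 2 in SAG against COR and 5 and 3 in SAG against GP, and without plate 2 the counts were 5 and 7, 4 and 5, and 7 and 1. With 13.2% to 18.9% of all genes called in a direction with both plates and 15.5% to 17.6% without plate 2, no more is read from these counts, which were not recomputed under other scalings.

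Among 7 genes of the collagens to which SLRPs bind, none was called between PF and COR or between PF and GP, which at a background of 5.43% to 8.73% says nothing particular about them. In COR against GP, Col2a1 (log2 -9.58) and Col11a1 (log2 -1.44) were higher in GP, at 53.4 and 2831 CPM against 0.309 and 2.26 CPM for Col2a1. Col1a1, the main chain of type I collagen, was at 82641 CPM in PF, 66141 CPM in GP and 63338 CPM in COR, and at 29167 CPM on SAG plate 1, where Dcn was also low.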

How the data were processed

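Single cells were read by full-length SMART-seq2 libraries made with Nextera XT. The submitters' processing notes name mm9, STAR 2.5.3a, HTSeq, Seurat 2.3.0 and R 3.4.4 with no roles, and the study's methods give later versions of Seurat and R for the single cells. The annotation and the strand setting are not given in the sources used here, and the labels and the methods differ on the RNA preparation. The deposited tables hold raw counts of reads per gene, with 1 column for each cell, and every column had a labelled cell.

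From these counts, reads were summed over the cells of each tissue and plate and divided by the total other than Rn45s. The SLRPs and gene lists were chosen with earlier results of these data known. All 10 SLRPs are named, of the listed enzymes, relatives and collagens the 8 with the largest called ratio among PF, COR and GP plus Kera, and for each SLRP the 3 most correlated genes at r of 0.5 or above. Exact Poisson and binomial intervals (95%) cover counting error only. Cells are not replicates and no test was run. Cells hold 3628 to 938318 reads other than Rn45s, and the precision of a share is set by the number of cells. One SAG cell has a description that names a PF plate and was kept by its title. Alternatives were the total with Rn45s, TMM factors, cell filters, single plates, pseudocounts of 0.1 and 1, means over cells, the top cell left out, thinning and a minimum of 10 reads. Python 3.11.15, numpy 2.4.6, pandas 2.3.3 and scipy 1.17.1 were used, with edgeR 4.0.16 in R 4.3.3 for the TMM factors only. Positions are from GENCODE vM1 on mm9, and promoter sequences from RefSeq on GRCm38.p6, which was not joined to mm9 positions.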

Additional observations from a re-analysis of the deposited data

How the results depend on the processing

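Of the 27 called ratios of a member between tissues, the sign was the same in all 27 under TMM factors, cell filters, single plates, a pseudocount of 0.1, means over cells, the top cell left out and the cell of conflicting labels left out, and in 25 with Rn45s counted. The exceptions were Prelp, PF over SAG (0.78), and Fmod, SAG over COR (-0.72). That total moves all genes alike, with medians of 2.20 and -2.24, and relative to these both genes kept their side. The calls themselves held in 26 of 27 with TMM factors, 25 with means over cells or plate 2 alone, 24 without the top cell of each gene, 23 with at least 1500 genes and 50000 reads, 21 with Rn45s counted and 21 with plate 1 alone. The number of members called moved by more than 1.5 times only in pairs with SAG. PF against SAG went from 3 to 8 with plate 2 cells only and to 6 without the top cell of each gene. SAG against COR went from 8 to 5 with Rn45s counted. SAG against GP went from 3 to 6 with Rn45s counted, 5 with the stricter cell filter, 5 without SAG plate 2, 6 with plate 1 cells only and 8 with plate 2 cells only. Without SAG plate 2, 10 of 14 calls in pairs with SAG remained, and all 14 kept their sign. The cause was not tested. With plates alone, a call rests on the ratio and not on agreement between plates. No paired analysis was possible because no result comes from a test. With 1 sample for each tissue, spread between animals is not known, and the Epyc shares outside PF rest on 4 to 7 cells in a tissue.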

Other observations

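A few single cells held much of a gene's reads. The highest Aspn level was 39665 CPM in a PF cell of plate 2, above the highest in GP (13476 CPM), although the summed PF level was lower. The highest Omd level was 8896 CPM in a COR cell of plate 2, against 3512 CPM or less in any PF, SAG or GP cell. Chad reached 9403 CPM in a cell of PF plate 1, where 6 of 34 cells had a read. One cell of SAG plate 1 carried a description that names a PF plate, and all 27 calls held without it.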
